A study of Mus musculus with 4 samples.

Results

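Tbx2, Tbx3, Tbx4 and Tbx5 are the T-box transcription factor genes of the lung mesenchyme, and their surroundings were examined for binding of HOXA5, a homeodomain protein of the HOXA cluster. The 4 genes were taken by name, and every HOXA5-FLAG peak with its summit inside one of them or within 200 kb of its annotated span was kept, with no use of peak height. That gave 14 of 4289 peaks in replicate 1 and 9 of 2832 peaks in replicate 2. All 9 replicate 2 peaks overlapped a replicate 1 peak, so that 9 of the 2175 peaks shared by the lists lay at these genes. The 4 members were set beside 21779 protein-coding genes in all.

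Chromatin came from lungs of E15.5 mouse embryos of genotype Hoxa5FLAG/FLAG, in which both copies of the endogenous gene carry a FLAG epitope. The series holds 2 immunoprecipitates with a FLAG antibody and 2 inputs of the same genotype, and the peak lists of the immunoprecipitates were analysed. All samples carried the tag. The titles write wt. Peak names in the second list show a different replicate number from its title, so which library it came from rests on the title. Neither an untagged lung nor the inputs were analysed here, so tag-specific binding and local background cannot be told apart. Whole lung mixes mesenchyme, epithelium and other cells, so the cells that carried a peak are unknown. Nothing in the labels tells whether different litters or pools of lungs gave the replicates, so agreement between them may be partly technical. Read depth is unknown, because the lists hold no counts.

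T-box proteins bind DNA through the T-box domain that names them. Tbx4 and Tbx5 act mainly as activators, and in the early mouse lung they are needed for normal Fgf10 expression and branching. Tbx2 and Tbx3 act mainly as repressors, and in lung mesenchyme they keep cells proliferating, with cell cycle inhibitor genes and genes of secreted Wnt antagonists among their known targets. The genes descend from one ancestral linked pair. In mouse forelimb, HOX proteins of the HOX4 and HOX5 groups have been reported to act on a Tbx5 enhancer inside the gene. The position of that enhancer was not compared with the peaks here.

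The annotation placed the members as 2 linked pairs (RefSeq, GRCm38.p6, the mm10 build of the lists). Tbx2 (chr11:85832615-85841948) and Tbx4 (chr11:85886367-85916097) were 44.4 kb apart. Tbx3 (chr5:119670534-119684724) and Tbx5 (chr5:119796514-119885220) were 112 kb apart. Bcas3, a gene of 473 kb for a cytoskeleton-associated protein, ended 6.56 kb below Tbx2, and Brip1, a DNA repair helicase gene, lay above Tbx4, where below and above mean toward lower and higher coordinates. Since the members of a pair lie close together, a peak between or beside them can fall within 200 kb of both. Each peak is described once, with the gene that held it or else the member with the nearest end.

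Promoter sequence in the RefSeq table covers 250 bases before to 50 after each start. Of the members Tbx4 had a window there. Of all the windows around the 4 genes, the one of Bcas3os2 held a shared summit. Bcas3os2 is a noncoding RNA gene inside the span of Bcas3. Both sequences are shown because one lies under a HOXA5-FLAG peak and the other belongs to the Tbx4 start in the table. That start lies within the Tbx4 span, near the peak inside that gene. In the Bcas3os2 sequence (chr11:85775631-85775930, minus strand) capitals mark bases 157 to 203, which run from 20 bases before the replicate 2 summit (base 177) to 20 bases after the replicate 1 summit (base 183), counted from the 5′ end. The Tbx4 sequence (chr11:85896515-85896814, plus strand) holds no summit and has no capitals.
Bcas3os2 promoter: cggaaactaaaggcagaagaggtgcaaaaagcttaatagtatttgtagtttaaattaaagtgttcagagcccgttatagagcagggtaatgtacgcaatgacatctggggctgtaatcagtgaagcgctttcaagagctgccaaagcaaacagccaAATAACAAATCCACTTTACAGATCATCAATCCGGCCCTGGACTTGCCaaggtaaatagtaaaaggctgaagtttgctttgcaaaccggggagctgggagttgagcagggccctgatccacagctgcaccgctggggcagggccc
Tbx4 promoter: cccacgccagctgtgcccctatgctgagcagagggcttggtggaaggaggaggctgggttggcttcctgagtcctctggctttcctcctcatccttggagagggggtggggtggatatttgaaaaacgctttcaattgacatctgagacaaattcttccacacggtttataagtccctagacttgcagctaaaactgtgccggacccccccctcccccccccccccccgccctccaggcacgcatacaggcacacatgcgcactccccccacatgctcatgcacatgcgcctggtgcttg

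The replicate 1 peak covered 285 of the 300 bases of the Bcas3os2 window and the replicate 2 peak all 300. The summits lay 68 and 74 bp before the annotated RNA start. No peak of either list touched the Tbx4 window. Its start (chr11:85896765) lies inside the Tbx4 span, above the lower end of the gene at chr11:85886367. The shared summit inside Tbx4 lay between these positions, 3.01 kb before that start and 7.39 kb above the lower end. No window covered the lower end of Tbx4. Windows were searched on both strands for 3 sets of letters, TAATTA (a homeodomain core), TGACAG (a MEIS core) and AGGTGT (a T-box half-site). Neither window held any of them. Among all 32851 promoter windows, 5.29% held TAATTA, 19.2% TGACAG and 13.7% AGGTGT. A shared summit lay in 23 of the 32851 windows (0.0700%). The 23 windows belong to 20 genes and the 32851 to 27025 genes, so some windows are of the same gene. Of these 23 windows, 9 held TGACAG (39.1%), 1 held TAATTA (4.35%) and 1 held AGGTGT (4.35%), which was not tested.

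Around Tbx2 and Tbx4 HOXA5-FLAG peaks lay mostly on the Bcas3 side. There were 10 peaks in replicate 1 and 5 in replicate 2, of which 5 were shared, over 483 kb. Of the 5 shared peaks, 4 had their summits inside Bcas3 and 1 inside Tbx4. None lay inside Tbx2. In this region 60.1% of bases belong to protein-coding gene spans, and exons were not told apart from introns. Elsewhere on the chromosomes 846 of 2135 shared peaks lay inside a coding gene (39.6%). Coding spans made up 38.7% of bases over the chromosomes. Fold enrichment, and −log10 q where it is given, are the authors' values for a summit, and each belongs to its own list, so folds of the 2 lists are given side by side and not compared.

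The Bcas3 peak farthest from Tbx2 within the 200 kb limit was the highest of the region in replicate 1. It lay at chr11:85672799-85673287, 159.5 kb below Tbx2, with an enrichment of 10.5-fold in replicate 1 (−log10 q 97.2) and 5.54-fold in replicate 2 (−log10 q 28.3). It ranked 228 of 4289 by fold in replicate 1 and 311 of 2832 in replicate 2. Its summits were 34 bp apart, and no gene other than Bcas3 held them.

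The next shared peak, 119 kb below Tbx2, was the lowest shared peak of the region in both lists. It lay inside both Bcas3 and Bcas3os1, another noncoding RNA gene within Bcas3, at chr11:85713058-85713786, and the enrichment was 4.10-fold in replicate 1 and 3.26-fold in replicate 2. Those values stood near the middle of each list, with 44.6% of replicate 1 peaks and 54.4% of replicate 2 peaks at or above them.

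Nearer to Tbx2 the summits of 2 shared peaks of similar height lay 20.8 kb apart. The first was at chr11:85754705-85755287, 77.7 kb below Tbx2, and the enrichment was 7.08-fold in replicate 1 and 5.69-fold in replicate 2. Its replicate 2 peak was 1069 bp long against 583 bp in replicate 1, and this was the single shared peak at the 4 genes with a length above 1000 bp. The second, 56.9 kb below Tbx2, was the peak over the Bcas3os2 promoter shown above (chr11:85775598-85775915), with 7.06-fold enrichment in replicate 1 (−log10 q 47.6) and 5.80-fold in replicate 2 (−log10 q 29.6). In replicate 2 these were the highest folds of the region, ahead of the peak at 159.5 kb.

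Tbx4 itself held 1 shared peak. It lay at chr11:85893542-85894086, 7.39 kb inside the lower end of the gene, with 7.29-fold enrichment in replicate 1 (−log10 q 43.0) and 4.25-fold in replicate 2 (−log10 q 18.1). The summits were 13 bp apart. Between it and the Bcas3os2 peak, a stretch of 118 kb that includes all of Tbx2, no peak was shared.

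The other 5 peaks of the region were found in replicate 1 alone, and their folds were between 3.04 and 5.08. The closest to Tbx2 lay at chr11:85831524-85831847, 993 bp below the gene and inside the noncoding RNA gene 2610027K06Rik, at 4.05-fold. A second lay 7.37 kb above Tbx2 with no gene at its summit, at 5.08-fold. The others were inside Bcas3 at 92.8 kb below Tbx2 (4.95-fold), inside Gm20759 at 101 kb above Tbx4 (3.04-fold) and inside Brip1 at 183 kb above Tbx4 (3.94-fold). So the peaks within 10 kb of Tbx2 rested on 1 library. Beyond Tbx4 on the Brip1 side, the nearest shared peak was 656 kb away.

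**Figure D1:**
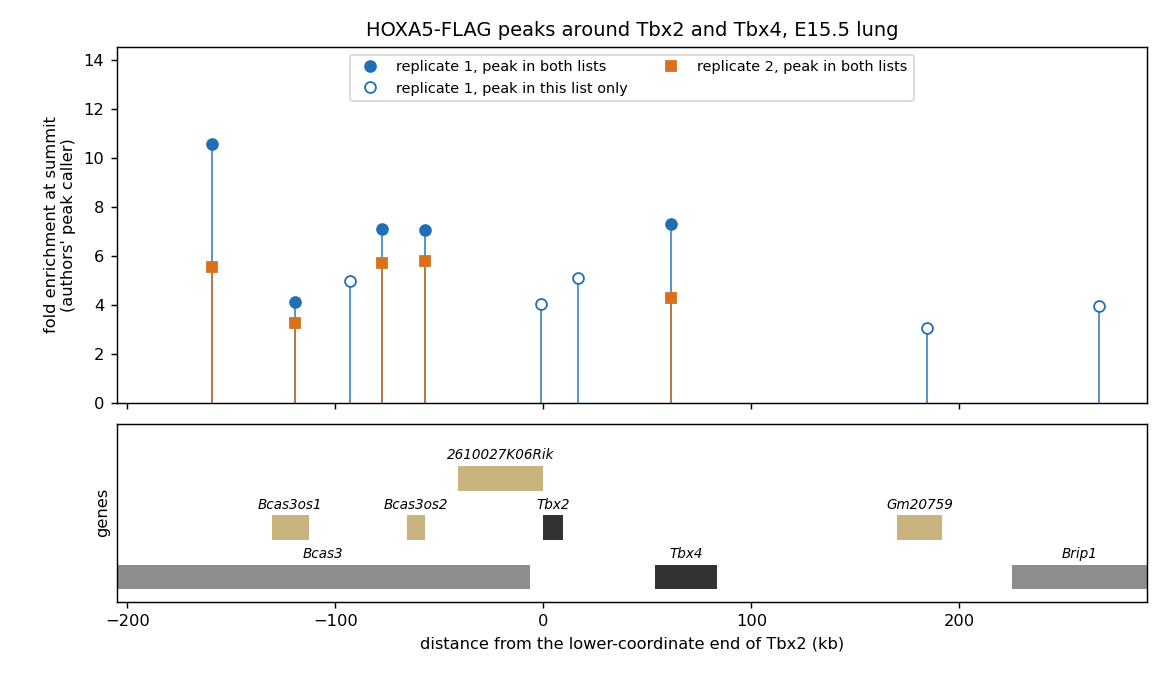
Fold enrichment of every HOXA5-FLAG peak (vertical axis) against the distance of its summit from the lower-coordinate end of Tbx2 in kb, with members in black, other protein-coding genes in grey and noncoding RNA genes in tan below. Filled circles and squares are peaks found in both lists and open circles peaks of replicate 1 alone. The 4 shared peaks on the left lie within Bcas3, the one on the right within Tbx4, and the peaks next to Tbx2 are open.

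Bcas3 as a whole held 8 peaks in replicate 1 and 5 in replicate 2, and all 5 replicate 2 peaks were shared. The part of Bcas3 within 200 kb of Tbx2 (193 kb of its 473 kb) held 4 of the 5 shared peaks. The fifth, 340 kb below Tbx2 at chr11:85492166-85492639, reached 8.82-fold in replicate 1 and 4.84-fold in replicate 2. The first replicate 1 peak outside the 200 kb limit, 219 kb from Tbx2, was also inside Bcas3, at 5.04-fold, and was not shared.

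Around Tbx3 and Tbx5 all peaks were found in both replicates. The 615 kb region held 4 peaks in replicate 1 and 4 in replicate 2. They overlapped one for one, and 3 lay inside Tbx5. Protein-coding spans made up 16.7% of the bases here, and Tbx5 and Tbx3 were the only coding genes in the region. For shared peaks outside both regions the share inside a coding gene was 39.6%, with 38.7% of bases over the chromosomes in coding spans. With 4 peaks here, a difference was not tested.

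The highest Tbx5 peak was also the highest peak at any of the 4 genes, in both lists. At chr5:119827333-119827743, 31.0 kb inside the lower end of Tbx5, enrichment was 12.8-fold in replicate 1 (−log10 q 103) and 6.09-fold in replicate 2 (−log10 q 28.5). It ranked 133 of 4289 peaks by fold in replicate 1 and 237 of 2832 in replicate 2. The summits were 9 bp apart. They also lay inside Gm5563, a noncoding RNA gene contained in the Tbx5 span. The upper end of Gm5563, an annotated start on the minus strand, lay 4.44 kb from the summit in replicate 1 and 4.43 kb in replicate 2.

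The other Tbx5 peaks were lower. One, 2.93 kb inside the lower end of the gene (chr5:119799276-119799582), reached 4.03-fold in replicate 1 and 3.38-fold in replicate 2. One at 14.8 kb (chr5:119811026-119811593), also inside Gm5563, reached 3.71-fold in replicate 1 and 3.62-fold in replicate 2. Its summits were 121 bp apart, the widest gap of the 9 shared peaks. The 3 Tbx5 peaks spanned 28.1 kb from the first to the last replicate 1 summit, and the upper part of the gene held none.

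Tbx3 held no peak in either list. The 1 peak assigned to it lay 192 kb below the gene, just inside the limit, at chr5:119478348-119478765. It had 9.13-fold enrichment in replicate 1 (−log10 q 74.8) and 5.49-fold in replicate 2 (−log10 q 26.1). No gene held its summits, and the nearest annotated gene end, that of the noncoding RNA gene Gm31314, was 40.2 kb away. On the other side, the nearest peak was the first one inside Tbx5, 115 kb from Tbx3. Over the 321 kb between those 2 peaks, Tbx3 included, neither list had a peak.

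**Figure D2:**
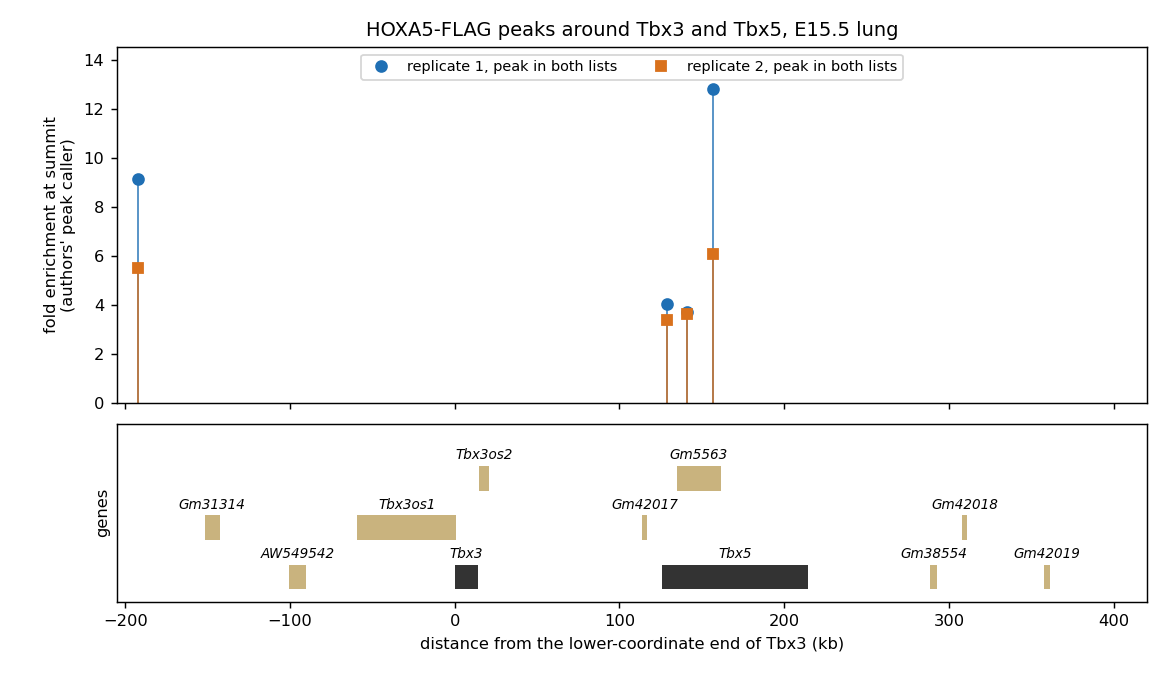
Fold enrichment of every HOXA5-FLAG peak (vertical axis) against the distance of its summit from the lower-coordinate end of Tbx3 in kb, with members in black and a selection of noncoding RNA genes in tan below. All 4 positions carry a circle (replicate 1) and a square (replicate 2), 3 of them inside Tbx5, and the stretch around Tbx3 has none.

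Just beyond the limit on the other side of Tbx5 another shared peak lay between genes. It was 217 kb from Tbx5 and 14.3 kb from the RNA-binding protein gene Rbm19, at chr5:120101955-120102540, and the enrichment was 9.02-fold in replicate 1 and 8.07-fold in replicate 2. It is not counted among the 9.

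As a group, the 9 shared peaks at the T-box genes had a median fold of 7.08 in replicate 1 (range 3.71 to 12.8) and 5.49 in replicate 2 (range 3.26 to 6.09). The 2166 other shared peaks had medians of 4.22 and 3.63 in replicates 1 and 2. The T-box peaks were short, with a median length of 489 bp in replicate 1 and 386 bp in replicate 2, against 525 and 458 bp for the others. A length above 1000 bp in either list was found for 1 of 9 (11.1%) at the T-box genes and for 531 of 2166 others (24.5%). Summits of the lists lay within 100 bp of each other for 8 of 9 at the T-box genes and for 72.6% of the others. With 9 peaks from 2 regions these differences were not tested.

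**Figure D3:**
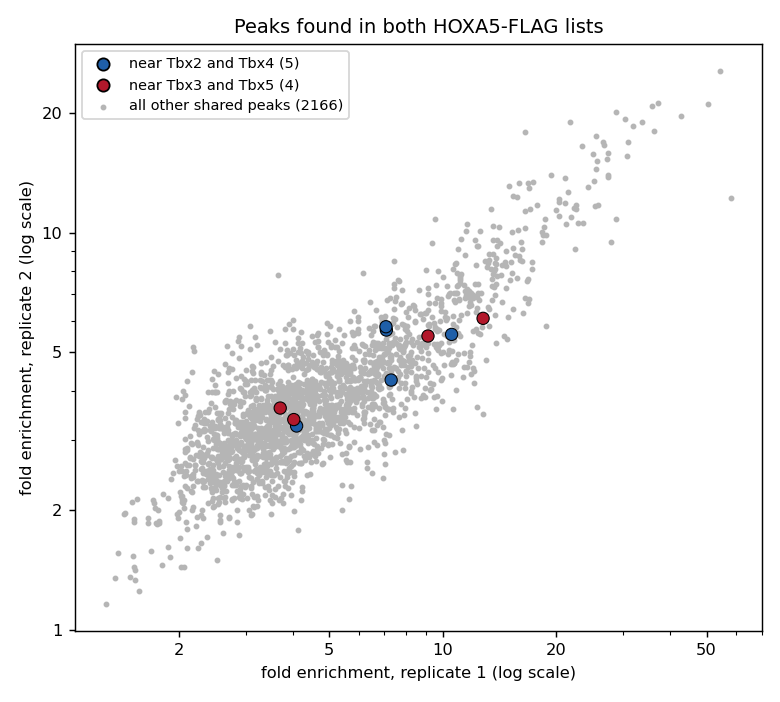
Fold enrichment in replicate 2 against replicate 1 (both log scales) for all peaks found in both lists, with the 5 near Tbx2 and Tbx4 in blue, the 4 near Tbx3 and Tbx5 in red and the 2166 others in grey. The T-box peaks lie within the grey cloud, 3 of them near 4-fold on the replicate 1 axis and 6 between 7.06- and 12.8-fold.

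In replicate 1, 9 of 14 peaks at the T-box genes had a partner in the other list (64.3%, 95% exact Clopper-Pearson interval 35.1 to 87.2), against 2186 of 4275 other peaks (51.1%, 49.6 to 52.6). In replicate 2, 9 of 9 had one (100%, 66.4 to 100), against 2188 of 2823 (77.5%, 75.9 to 79.0). The intervals cover counting error alone. In both replicates the interval around the share at the T-box genes includes the share of the other peaks. All 5 peaks without a partner were in the Tbx2 and Tbx4 region, and their median fold was 4.05, against 7.08 for the 9 with one. Over the whole replicate 1 list the median was likewise lower without a partner (3.63) than with one (4.21).

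Each of the 4 genes had at least 1 shared peak inside it or within 200 kb, as did 5550 of the 21779 protein-coding genes (25.5%). A shared peak inside the gene was found for 2 of 4, Tbx4 and Tbx5, and for 707 of 21779 (3.25%). The shares inside genes take no account of gene length. Tbx5 spans 88.7 kb and Tbx4 29.7 kb, against 14.2 kb for Tbx3 and 9.33 kb for Tbx2. Counting every peak within 200 kb of a gene, also those nearer to its partner, Tbx2 had 5 shared peaks, Tbx3 4, Tbx4 4 and Tbx5 3. At least 5 were found for 29 coding genes (0.133%), at least 4 for 79 (0.363%) and at least 3 for 262 (1.20%). The median coding gene had 0. Tbx5 was 1 of 31 coding genes with at least 3 shared peaks inside (0.142%), again with no account of gene length. The 4 counts are not separate observations, since Tbx2 and Tbx4 share 4 peaks and Tbx3 and Tbx5 share 3, and neighbours such as Bcas3 (6 shared peaks within 200 kb) count the same sites again.

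**Figure D4:**
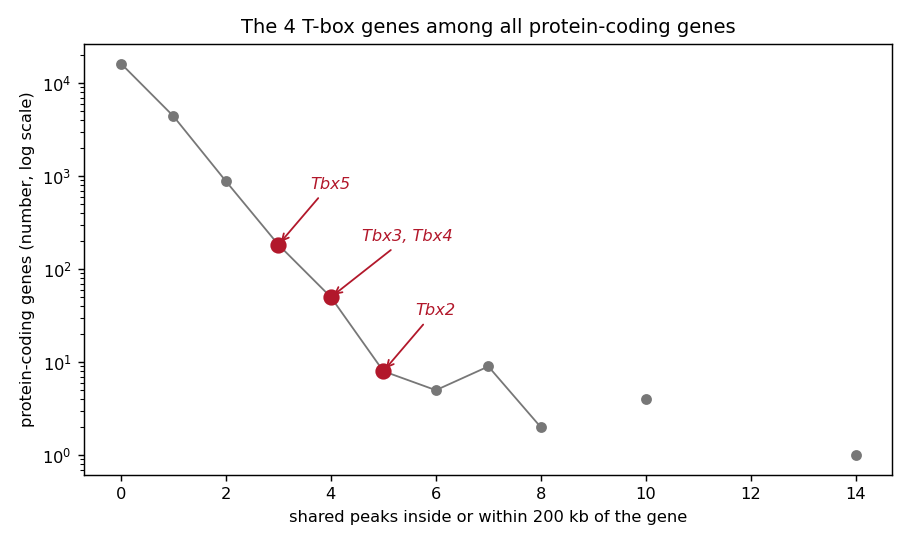
Number of protein-coding genes (log scale) against the number of shared peaks inside or within 200 kb of the gene, with the 4 T-box genes marked in red. Most genes have 0 or 1, and the members stand at 3 (Tbx5), 4 (Tbx3 and Tbx4) and 5 (Tbx2).

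Per length, the 2 regions held 8.20 shared peaks per Mb, 10.3 around Tbx2 and Tbx4 and 6.51 around Tbx3 and Tbx5. The rest of the chromosomes held 0.803 per Mb. Counting all replicate 1 peaks, there were 20.7 per Mb around Tbx2 and Tbx4 and 6.51 around Tbx3 and Tbx5, against 1.59 outside both regions. In replicate 2 there were 10.3 and 6.51 per Mb at these pairs, against 1.05 outside. The regions were chosen with these peak lists already known, so the densities are a description.

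Other T-box genes did not have as many. Of the 13 in the annotation, 2 had a shared peak within 200 kb (15.4%, against 25.5% of coding genes) and none held one. These were Tbx18, with 2, the higher one 60.5 kb away (5.10-fold in replicate 1, 4.77-fold in replicate 2), and Tbx22, with 1 at 47.9 kb (2.28- and 2.54-fold). Tbx15 had a peak in replicate 2 alone and Tbx20 one in replicate 1 alone. No peak of either list lay within 200 kb of T, Eomes, Tbr1, Tbx1, Tbx6, Tbx10, Tbx19, Tbx21 or Mga.

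Among 24 genes that act with the members or downstream of them, 10 had a shared peak within 200 kb (41.7%, against 25.5% of coding genes). The list was chosen with earlier results of these data known, so shares over it are a description. A shared peak inside the gene was found for 3 of 24 (12.5%, against 3.25% of coding genes), the hedgehog pathway genes Ptch1, Gli2 (2.64-fold in replicate 1, 2.85-fold in replicate 2) and Smo (2.32- and 2.47-fold). The hedgehog pathway genes Shh, Gli1 and Gli3, also in the list, had no shared peak within 200 kb. Shh and Gli1 had no peak there in either list, and Gli3 had 1 in replicate 2 alone. Fgf10, the branching signal downstream of Tbx4 and Tbx5, had 1 at 35.2 kb (12.2-fold in replicate 1, 7.41-fold in replicate 2). Tcf21, a mesenchymal bHLH factor gene, had 2, the higher at 99.9 kb (30.9- and 17.0-fold). Wnt2, a mesenchymal Wnt ligand gene, had 1 at 43.0 kb (4.41-fold in replicate 1, 3.22-fold in replicate 2). Bmp4, a growth factor gene, had 1 at 101 kb (7.01- and 3.65-fold), and Ptch1, the hedgehog receptor gene, had its higher one at 105 kb (6.05- and 4.29-fold) besides the one inside. Shisa3, a Wnt antagonist gene repressed by Tbx2 and Tbx3, had 1 at 34.9 kb (4.16- and 4.06-fold). The Wnt antagonist gene Frzb and the cell cycle inhibitor genes of the list were picked out after their values were seen. So were the hedgehog pathway genes above other than Ptch1. Cdkn1a had 3 shared peaks, the highest at 160 kb (3.55- and 3.39-fold), while Frzb, Cdkn1b and Cdkn2a had no peak within 200 kb in either list.

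Likeness to each member was measured over 6 values per gene from the 2 libraries (the numbers of replicate 1, replicate 2, shared and internal shared peaks and the highest fold in each list, all on a log2 scale) as a Euclidean distance. Closest to Tbx2 were the neighbours Nap1l1 and Phlda1 (distance 0.430 each), which count the same peaks. Closest to Tbx3 were Ptn (0.337) and Ube2v2 (0.457), and closest to Tbx4 Zdhhc14 (0.724) and Asic2 (0.770). For Tbx5 they were Pcdh9 (0.478), with 3 shared peaks inside and a highest fold of 11.6 in replicate 1 and 6.26 in replicate 2, and Atrnl1 (0.534).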

How the data were processed

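Chromatin was fixed in 1% formaldehyde for 10 min and sheared to 200 to 500 bp, and 20 µg went into each immunoprecipitation, per the labels' protocols. The tools in the submitters' processing notes are MACS3 3.0.1, Bowtie2 2.5.2, FastQC 0.12.1, Trim Galore, deepTools, SAMtools 1.18 and bedtools 2.31.0, and the build is mm10. No source used here gives their settings, filters or the control library of the caller. Peaks were called separately for the replicates, since each immunoprecipitate has a deposited list. The fold enrichment in a row is a deposited ratio from the caller, as is the −log10 q, which was above 2 in every row. The deposited score was not used.

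Peaks overlapping by at least 1 bp were called shared, and chains were merged at the summit of the replicate 1 peak with the highest fold. Genes and promoters came from RefSeq tables (GRCm38.p6). Genes starting below 3 Mb on chromosomes other than Y (340 of 49943) were left out as likely scaffold positions. Exons were not annotated there. Every peak at the members was named, and other genes were named from 2 lists by their highest replicate 1 fold or by likeness, except the T-box genes without a shared peak and those said to be picked out, which were chosen after their values were seen. Counts were computed for all 21779 protein-coding genes with Python 3.11.15, pandas 2.3.3 and scipy 1.17.1, and the functions were tested on simulated data. No test across samples was run, since the peak lists analysed here are of 1 condition. Members and lists were chosen with earlier results of these data known.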

Additional observations from a re-analysis of the deposited data

How the results depend on the processing

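The count of 9 shared peaks at the T-box genes was 9 with reciprocal overlap of 50% or a −log10 q of at least 5, and 8 with summits within 100 bp (Tbx5 then had 2) or peaks of at most 1000 bp (the peak 77.7 kb below Tbx2 was lost). With a window of 100 kb it was 6, and Tbx3 then had none and Tbx2 had 2. Leaving out a replicate, that is, counting all peaks of the other list, gave between 9 and 14 peaks. Without replicate 2, Tbx2 had 7 and Tbx4 had 3. Of 28 counts per gene under these alternatives, 24 were within 1.5 times the reported value. Some of the 28 could not move. All 9 replicate 2 peaks were shared, which fixed the counts without replicate 1. The lowest −log10 q of the 9 shared peaks in either list was 8.80, which fixed the counts with at least 5. The shares with a partner were between 57.1% and 66.7% in replicate 1 and between 88.9% and 100% in replicate 2. These lie within their intervals, but those are wide and cover counting error alone, so they do not bound effects of the processing. The share of coding genes with a shared peak was 25.5%. It was 23.4% with reciprocal overlap, 19.8% with summits within 100 bp, 21.2% with a −log10 q of at least 5, 19.8% with peaks of at most 1000 bp, 14.7% with a window of 100 kb and 26.1% over all annotated genes. Leaving out a replicate gave between 31.4% and 42.3%. No paired analysis was possible because the peak lists analysed here are of the immunoprecipitates alone and no result comes from a test. Depth is unknown, so a peak missing from 1 list may lie below its threshold.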
